A study of Homo sapiens with 30 samples.

Results

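Human chromosome 19 carries the densest arrays of zinc finger genes in the genome, and 248 of them were followed here across 6 groups of T47D cells. Members were all genes whose symbol is ZNF, a number and at most 1 further letter, that lie on chromosome 19 and that had at least 20 raw counts in each of at least 2 libraries. Of 60554 genes in the count files, 263 matched by symbol and chromosome and 248 passed the minimum, while 249 ZNF genes on other chromosomes passed the same minimum. Members were thus chosen by raw counts, and the levels below are a description. ZNF709, with a second-highest library count of 20, and ZNF56P, with 24, lay just inside the minimum, and ZNF257, with 14, and ZNF725P, with 5, lay just outside it. Among the 248 genes, 232 had at least 20 counts in each of the 12 libraries.

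Most of these genes encode proteins with a KRAB domain followed by a row of C2H2 zinc fingers. The fingers bind DNA, in many cases within transposable elements, and the KRAB domain recruits TRIM28 (KAP1), which brings the histone methyltransferase SETDB1, HP1 proteins and other chromatin factors that silence the bound site. The genes arose by repeated tandem duplication, so neighbours in a cluster are often close relatives.

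T47D is a luminal breast cancer cell line with progesterone receptor. In the groups called progestin, cells received the synthetic progestin R5020 at 10 nM, per the labels' protocol, although the titles write progesterone. The 12 RNA-seq libraries formed 6 groups of 2: progestin with ICRF, untreated with ICRF, progestin with siRNA against CEBPA (siCEBPA), untreated with siCEBPA, progestin with control siRNA (siControl) and untreated with siControl. CEBPA encodes the transcription factor C/EBPα. The series' design text speaks of inhibiting topoisomerase 2α, and the labels neither spell out ICRF nor give its dose. The 8 siRNA libraries followed a short arrest of 4 hours, and their progestin libraries carry the time label T360 and their untreated libraries T0, with no unit. Hormone and time label therefore cannot be told apart in the siRNA groups. The ICRF titles name no siRNA, arrest or time, so the ICRF libraries and the siRNA libraries differ by more than ICRF. Whether the 2 replicates of a group came from different cultures is not stated, and p-values measure only the spread between these libraries.

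Library totals ran between 57364785 and 148624099 counts, the highest being untreated siControl replicate 2. The 10 luminal epithelial markers were all present, with 9 of them over 10 CPM (counts per 1000000 counts, with TMM scaling) in every library, whereas 4 of 5 fibroblast, 4 of 4 endothelial and 4 of 5 blood markers stayed under 1 CPM in every library. The other fibroblast marker was the collagen gene COL1A1, at 25.6 to 69.1 CPM. Of 5 basal or myoepithelial markers only KRT14 stayed under 1 CPM in every library, and ACTA2 was at 7.23 to 34.2 CPM. The basal or myoepithelial list summed to 25.6 to 35.7 CPM in ICRF libraries and 9.06 to 15.1 CPM in siRNA libraries. CEBPA had 57.5 and 62.2 CPM in progestin siCEBPA cells against 207 and 204 CPM in progestin siControl cells, and 10.7 and 12.1 CPM in untreated siCEBPA cells against 47.7 and 54.4 CPM in untreated siControl cells, as the siRNA labels say.

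The genes fell into 10 clusters when a gap of over 1 Mb between neighbouring gene starts was taken as a border (hg38). Cluster 1 spans chr19:2819874-2944971 with 5 genes kept, cluster 2 chr19:7069444-9793180 with 14, cluster 3 chr19:11483427-12640098 with 27 and cluster 4, in the band next to the centromere on the short arm, chr19:19668796-24129961 with 38. On the long arm, cluster 5 spans chr19:34542462-34964049 with 5 genes, cluster 6 chr19:36182060-37817300 with 27, cluster 7 chr19:39984134-40090938 with 3, cluster 8 chr19:43525497-45076588 with 23, cluster 9 chr19:51571298-53580269 with 41 and cluster 10, the last one toward the end of the long arm, chr19:55476332-58481230 with 58. Another 7 genes, among them ZNF333, ZNF473 and ZNF574, lay outside the clusters. Overlap was frequent: 117 of 248 genes shared part of their span with another annotated gene, ZNF or not, on the same strand. Such pairs, and close paralogs with shared sequence, may split or lose reads in the authors' counting, and 11 members carry pseudogene symbols.

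Levels were low throughout. The median over the 248 genes was 1.65 CPM per kb of counted exon, the lowest 0.026 CPM per kb (ZNF208) and the highest 29.0 CPM per kb (ZNF146, which encodes a protein made almost wholly of zinc fingers with no KRAB domain). ZNF552 in cluster 10 followed with 15.5 CPM per kb and ZNF761 in cluster 9 with 9.45 CPM per kb. The leading genes of the other clusters, per kb, were ZNF57, ZNF561, ZNF627, ZNF14, ZNF302, ZNF780A and ZNF45 in clusters 1, 2, 3, 4, 5, 7 and 8, with 2.30 CPM per kb (ZNF780A) to 8.27 CPM per kb (ZNF561). Median levels of the clusters lay between 1.16 CPM per kb in cluster 6 and 2.60 CPM per kb in cluster 9.

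The start regions of neighbouring genes share long runs of letters, and examples are shown as a description. Most members rose with progestin under ICRF with or without the first of these runs, as given further on. RefSeq windows (GRCh38.p14) from 250 bases before to 50 bases after an annotated start were at hand for 207 of the 248 genes, and each window is written 5′ to 3′ on the gene's strand. Capitals mark CCTGATTGGA or its reverse complement TCCAATCAGG in ZNF681, ZNF737, ZNF66 and ZNF57, ACTACATTTCCC or GGGAAATGTAGT in ZNF540, GAATTCTGGGAA or TTCCCAGAATTC in ZNF225, GCCCCGCCCACC or GGTGGGCGGGGC in ZNF761 and GGAAGTCCCGCC or GGCGGGACTTCC in ZNF547. ZNF681 (chr19:23758842-23759141, minus strand), ZNF737 (chr19:20565732-20566031, minus strand) and ZNF66 (chr19:20776054-20776353, plus strand) belong to cluster 4, and ZNF57 (chr19:2900678-2900977, plus strand, the first of its 2 starts) belongs to cluster 1. ZNF540 (chr19:37594626-37594925, plus strand, the later of its 2 starts) belongs to cluster 6, ZNF225 (chr19:44113149-44113448, plus strand) to cluster 8, ZNF761 (chr19:53431734-53432033, plus strand) to cluster 9 and ZNF547 (chr19:57363301-57363600, plus strand) to cluster 10.
ZNF681: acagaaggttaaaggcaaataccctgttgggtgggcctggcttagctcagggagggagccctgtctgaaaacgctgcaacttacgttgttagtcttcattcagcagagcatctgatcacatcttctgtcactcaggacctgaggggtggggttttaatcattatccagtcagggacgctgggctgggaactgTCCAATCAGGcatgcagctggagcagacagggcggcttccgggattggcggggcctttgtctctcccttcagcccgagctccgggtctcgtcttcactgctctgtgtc
ZNF737: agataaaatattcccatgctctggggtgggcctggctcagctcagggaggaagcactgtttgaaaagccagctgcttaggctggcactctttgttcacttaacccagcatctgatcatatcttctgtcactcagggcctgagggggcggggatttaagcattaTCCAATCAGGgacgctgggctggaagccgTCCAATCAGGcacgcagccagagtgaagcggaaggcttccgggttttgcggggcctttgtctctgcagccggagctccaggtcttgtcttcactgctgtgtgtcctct
ZNF66: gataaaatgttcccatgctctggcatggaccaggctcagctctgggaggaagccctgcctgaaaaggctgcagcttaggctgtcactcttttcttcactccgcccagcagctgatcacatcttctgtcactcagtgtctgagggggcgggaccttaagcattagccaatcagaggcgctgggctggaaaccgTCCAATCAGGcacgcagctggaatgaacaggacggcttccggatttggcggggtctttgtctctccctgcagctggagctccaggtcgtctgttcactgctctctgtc
ZNF57: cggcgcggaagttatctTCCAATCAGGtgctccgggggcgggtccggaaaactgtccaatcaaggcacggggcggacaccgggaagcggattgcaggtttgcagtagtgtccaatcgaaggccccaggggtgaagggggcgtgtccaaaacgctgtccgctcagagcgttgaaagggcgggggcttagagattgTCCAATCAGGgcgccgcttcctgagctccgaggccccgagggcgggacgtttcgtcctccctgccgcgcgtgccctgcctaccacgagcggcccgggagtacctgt
ZNF540: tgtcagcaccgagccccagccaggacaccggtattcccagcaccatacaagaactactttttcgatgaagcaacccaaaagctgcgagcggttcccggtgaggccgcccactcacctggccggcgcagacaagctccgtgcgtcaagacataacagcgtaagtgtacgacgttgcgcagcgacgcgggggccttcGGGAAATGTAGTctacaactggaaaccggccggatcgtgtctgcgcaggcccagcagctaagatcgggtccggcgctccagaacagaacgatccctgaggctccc
ZNF225: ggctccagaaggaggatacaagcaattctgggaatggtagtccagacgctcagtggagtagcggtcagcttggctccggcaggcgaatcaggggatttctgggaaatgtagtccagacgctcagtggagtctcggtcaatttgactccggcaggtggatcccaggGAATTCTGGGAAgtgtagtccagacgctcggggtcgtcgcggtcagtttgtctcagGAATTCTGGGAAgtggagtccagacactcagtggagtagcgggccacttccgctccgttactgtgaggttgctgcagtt
ZNF761: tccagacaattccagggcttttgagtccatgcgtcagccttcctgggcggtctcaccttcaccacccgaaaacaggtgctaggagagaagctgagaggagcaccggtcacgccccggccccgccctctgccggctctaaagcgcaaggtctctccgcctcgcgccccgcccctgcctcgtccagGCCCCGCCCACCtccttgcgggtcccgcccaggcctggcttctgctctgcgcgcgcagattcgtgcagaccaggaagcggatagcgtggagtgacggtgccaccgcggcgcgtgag
ZNF547: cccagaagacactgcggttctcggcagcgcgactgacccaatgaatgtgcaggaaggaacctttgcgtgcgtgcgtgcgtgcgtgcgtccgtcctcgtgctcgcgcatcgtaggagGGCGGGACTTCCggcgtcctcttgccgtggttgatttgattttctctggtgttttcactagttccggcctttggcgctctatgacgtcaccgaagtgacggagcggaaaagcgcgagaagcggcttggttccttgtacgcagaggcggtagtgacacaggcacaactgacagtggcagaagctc

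CCTGATTGGA, which holds ATTGG, the reverse complement of the CCAAT box, was the 10-letter run found in most members' windows, and it was picked for that count. Searched on both strands, it stood in 43 of 207 members (20.8%) and in 117 of all 27305 genes with a window (0.428%), those 43 included. Its carriers sat in 3 clusters: 26 of 28 genes of cluster 4, 14 of 24 of cluster 3 and 3 of 5 of cluster 1, with no carrier among the windows of the other clusters. It began at position -58 from the start in both ZNF681 and ZNF66. Within each cluster of at least 15 windows, the 12-letter run held by most genes was then taken among the runs found in under 1% of all genes. In clusters 3 and 4 these were longer forms of the same element with different flanks: CCAATCAGGGGC stood in 11 of 24 windows of cluster 3 and none of cluster 4, and GCCTGATTGGAC stood in 18 of 28 windows of cluster 4 and 1 of cluster 3. Other clusters had runs of their own. ACTACATTTCCC stood in 11 of 25 windows of cluster 6 and 6 of 19 of cluster 8 (0.472% of all genes). GAATTCTGGGAA stood in 9 of 19 windows of cluster 8 (0.106% of all genes) and GCCCCGCCCACC in 10 of 30 of cluster 9 (0.689%), neither in another ZNF cluster. GGAAGTCCCGCC stood in 15 of 52 windows of cluster 10 (0.352% of all genes). The plain CCAAT box stood in 57.5% of members against 39.7% of all genes, and in 28 of 28 windows of cluster 4.

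Letters linked to the study's 2 factors were searched in the same windows, and the C/EBP-type run was less frequent in members than in all genes. The C/EBP-type run TTGCNNAA stood in 10 of 207 members (4.83%) against 12.7% of all genes, and none of the 10 was in cluster 4. A loose form of the hormone response element bound by the progesterone receptor, GNACA and TGTNC with 3 letters between them, stood in 0 of 207 members and in 0.48% of all genes. At so low a share in all genes, its absence from 207 genes does not show that it is scarcer in members. The windows had a median GC content of 60% and 20 CpG pairs in members, against 58.7% and 14 CpG pairs in all genes. These matches describe letters in a window and do not show binding.

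Summed over the 248 genes, the level was 3529 and 3613 CPM in progestin ICRF cells and 2549 and 2550.4 CPM in untreated ICRF cells. It was 2976 and 2908 CPM in progestin siCEBPA cells, 3131 and 3231 CPM in untreated siCEBPA cells, 2483 and 2461 CPM in progestin siControl cells and 2616 and 2582 CPM in untreated siControl cells. The replicates stayed close, and the pairs of values overlapped in none of the 3 hormone comparisons: the sum was higher with progestin under ICRF and lower with progestin under either siRNA. In bulk RNA, a change in the share of cells expressing a gene and a change of RNA per cell cannot be told apart.

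**Figure D1:**
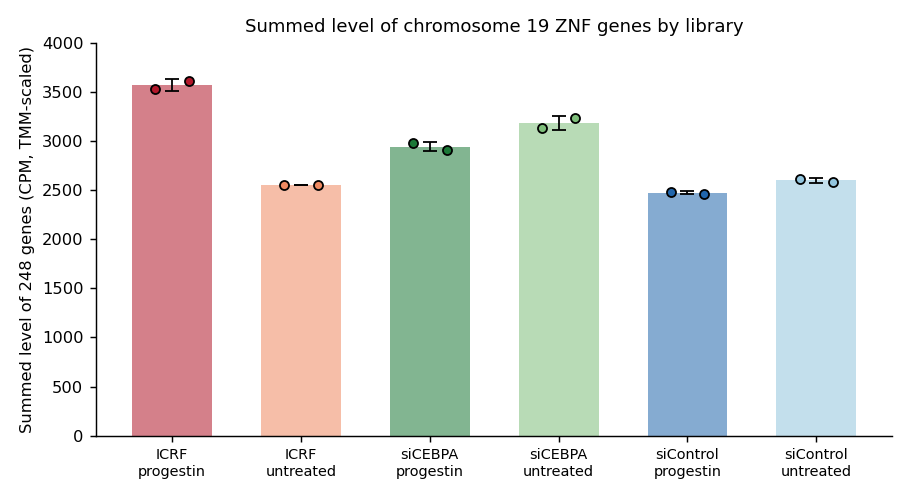
Summed level of the 248 chromosome 19 ZNF genes in CPM with TMM scaling (vertical axis) in the 6 groups; points are the 2 libraries, bars their mean and whiskers the SD. With this scaling, progestin ICRF libraries stood at 3529 and 3613 CPM, above the other 10 libraries, and untreated ICRF libraries lay near the siControl libraries. By library totals, progestin ICRF and untreated siCEBPA libraries overlapped.

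Under ICRF, progestin was followed by more rises than falls in each of the 10 clusters. Of 248 genes tested, 179 rose and 22 fell at an adjusted p under 0.05 (edgeR quasi-likelihood test, Benjamini-Hochberg over all genes), where 31.3% of all 18556 genes tested were called higher and 30% lower. The members' median change was 0.52 on the log2 scale, against -0.01 over all genes tested. The 131 members with no other gene over them on their strand gave 101 higher and 9 lower with a median log2 change of 0.57. ZNF genes on other chromosomes gave 149 higher and 47 lower of 249 with a median of 0.36, and the other chromosome 19 genes past the same minimum gave 147 higher and 397 lower of 958 with a median of -0.15.

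Cluster 4 had 33 of 38 genes higher under ICRF, none lower and a median log2 change of 0.81. Clusters 1 and 7 had every gene higher (5 of 5 and 3 of 3), cluster 6 had 25 of 27 higher and 1 lower, and cluster 8 had 18 of 23 higher and none lower. Most falls lay in clusters 10 (35 higher and 11 lower of 58), 3 (15 higher and 5 lower of 27) and 2 (8 higher and 3 lower of 14). In gene order, 23 neighbours in cluster 10 from ZNF583 to ZNF211 were all called higher, with log2 changes of 0.18 to 1.57. A stretch of 21 neighbours in cluster 6 from ZNF565 to ZNF570 ran between 0.16 and 1.42, and a stretch of 16 in cluster 4 from ZNF682 to ZNF100 between 0.51 and 1.27. Neighbours that overlap share a part of the locus, so such a stretch is a description.

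**Figure D2:**
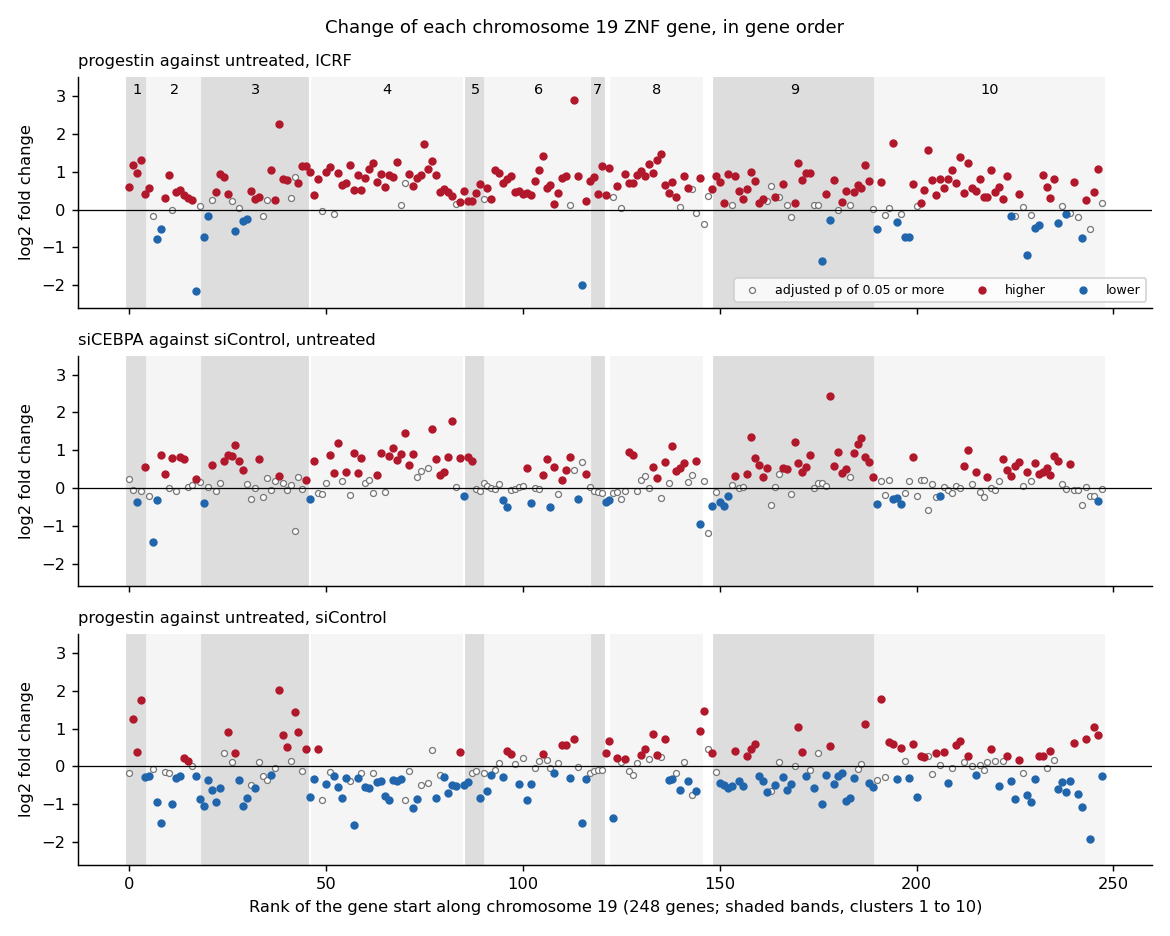
Log2 fold change of each gene (vertical axis) against the rank of its start along chromosome 19 (horizontal axis; bands are clusters 1 to 10), for progestin against untreated under ICRF, for siCEBPA against siControl without hormone and for progestin against untreated in siControl cells. Filled points passed the adjusted p of 0.05 (red higher, blue lower); 179 genes are red in the ICRF panel, 105 in the siCEBPA panel and 63 in the siControl panel.

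ZNF540, in cluster 6, had the largest rise under ICRF. It stood at 4.39 and 4.50 CPM in progestin ICRF cells, against 0.510 and 0.676 CPM in untreated ICRF cells, a 7.39-fold difference (log2 2.89 ± 0.17, SE, adjusted p = 2.13e-19). In progestin siControl cells it reached 1.10 and 1.11 CPM, against 0.704 and 0.631 CPM in untreated siControl cells. Its libraries do not overlap in either comparison. ZNF563 in cluster 3 stood at 18.8 and 19.2 CPM in progestin ICRF cells, against 4.07 and 3.73 CPM in untreated ICRF cells (log2 2.27 ± 0.08). It also rose with either siRNA, as given further on.

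ZNF784 (log2 1.76 ± 0.10), ZNF225 (1.47 ± 0.10), ZNF585A (1.42 ± 0.08) and ZNF547 (1.40 ± 0.15) were the next largest rises under ICRF among members of at least 1 CPM without overlap between libraries. ZNF225 had 8.64 and 9.10 CPM in progestin ICRF cells, against 3.11 and 3.23 CPM in untreated ICRF cells. ZNF547 had 3.61 and 3.66 CPM in progestin ICRF cells, against 1.38 and 1.35 CPM in untreated ICRF cells. Their libraries do not overlap, and their start regions are those printed for clusters 8 and 10. ZNF91, a cluster 4 gene whose protein is known to repress SVA and L1 retrotransposons, was picked for that role after its values were seen. It had 21.4 and 20.6 CPM in progestin ICRF cells, against 14.8 and 13.9 CPM in untreated ICRF cells (log2 0.53 ± 0.07, adjusted p = 1.49e-09). ZNF93, its L1-binding relative in the same cluster, picked in the same way, had 8.76 and 10.3 CPM in progestin ICRF cells, against 10.6 and 9.70 CPM in untreated ICRF cells, and did not pass the test (log2 -0.11 ± 0.09, adjusted p = 0.293).

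A small set fell under ICRF. ZNF812P, a pseudogene in cluster 2, had 1.77 and 2.11 CPM in progestin ICRF cells, against 8.24 and 8.68 CPM in untreated ICRF cells (log2 -2.14 ± 0.12). In siControl cells it had 14.9 and 15.8 CPM with progestin, against 18.5 and 17.6 CPM untreated. ZNF552, the second most abundant member per kb, had 15.9 and 17.6 CPM in progestin ICRF cells, against 39.7 and 36.8 CPM in untreated ICRF cells (log2 -1.21 ± 0.06). ZNF781 (log2 -2.0 ± 0.27) and ZNF321P (-1.35 ± 0.25) fell at levels near 1 CPM, and ZNF414 (-0.77 ± 0.13) and ZNF837 (-0.76 ± 0.20) also fell.

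The summed level of the 10 luminal epithelial markers was 5287 and 5023 CPM in progestin ICRF libraries, against 10597 and 10631 CPM in untreated ICRF libraries, while the siRNA groups lay between 7041 and 9745 CPM. The share of counts from 13 mitochondrial messenger RNAs was 2.33% to 2.68% in progestin ICRF libraries, against 2.86% to 2.95% in untreated ICRF libraries. The part of either in the ZNF result was not tested.

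The hormone changes under ICRF and with siControl were set against each other in a fit of all 12 libraries. The difference of the log2 responses, ICRF minus siControl, was called higher for 171 and lower for 15 of 248 members, where 24.9% of all 19003 genes tested were called higher and 24% lower. The members' median difference was 0.65, against 0.02 over all genes. ZNF genes on other chromosomes shared much of this, with 126 higher and 43 lower of 249 and a median of 0.35. The other chromosome 19 genes gave 170 higher and 246 lower of 979, with a median of -0.05. Cluster 4 had 32 of 38 genes with a higher response under ICRF and none with a lower one, with a median difference of 1.31, and cluster 6 had 25 of 27 and none, with a median of 0.69. This difference also holds whatever else separates the experiments, including the arrest and the time label.

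Cluster 4 as a whole went opposite ways. Its summed level was 378 and 389 CPM in progestin ICRF cells against 239.6 and 241 CPM in untreated ICRF cells, and 178 and 177 CPM in progestin siControl cells against 231 and 226 CPM in untreated siControl cells. ZNF737 in this cluster had 12.6 and 14.4 CPM in progestin ICRF cells against 9.04 and 9.52 CPM in untreated ICRF cells, and 3.87 and 5.48 CPM in progestin siControl cells against 13.5 and 13.3 CPM in untreated siControl cells (difference of responses 2.06 ± 0.15 on the log2 scale). ZNF493 of cluster 4 had 5.77 and 5.54 CPM in progestin ICRF cells against 2.69 and 3.20 CPM in untreated ICRF cells, and 2.74 and 3.00 CPM in progestin siControl cells against 5.09 and 5.39 CPM in untreated siControl cells (1.81 ± 0.17). These genes rose under ICRF and fell with siControl, with no overlap between libraries in either comparison. Among members of at least 1 CPM, ZNF730 (1.75 ± 0.27) and ZNF98 (1.70 ± 0.35) of cluster 4 and ZNF333 outside the clusters (1.79 ± 0.13) completed the largest positive differences beside ZNF540 (2.16 ± 0.27).

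The negative differences were fewer. Among members of at least 1 CPM, ZNF812P (-1.90 ± 0.13), ZNF579 (-1.07 ± 0.22), ZNF69 (-0.90 ± 0.14), ZNF787 (-0.87 ± 0.13), ZNF702P (-0.79 ± 0.12) and ZNF587 (-0.68 ± 0.09) led them. ZNF541, under 1 CPM, was at -1.85 ± 0.60. ZNF587, whose protein is known to bind HERV-K elements, had 11.7 and 12.9 CPM in progestin ICRF cells against 16.1 and 16.3 CPM in untreated ICRF cells, and 33.1 and 34.3 CPM in progestin siControl cells against 27.1 and 28.1 CPM in untreated siControl cells. Across 247 members the 2 responses, which share no library, gave Pearson's r = 0.432 and Spearman's rho = 0.385, and over 17565 genes tested in both fits r = 0.567. Of the members, 56 were called higher in both, 63 were higher under ICRF and lower with siControl, 3 were lower under ICRF and higher with siControl, and 17 were lower in both. Over the 17565 genes these classes held 2821 (16.1%), 1081 (6.15%), 1041 (5.93%) and 2652 (15.1%), against 22.7%, 25.5%, 1.21% and 6.88% of the members.

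**Figure D3:**
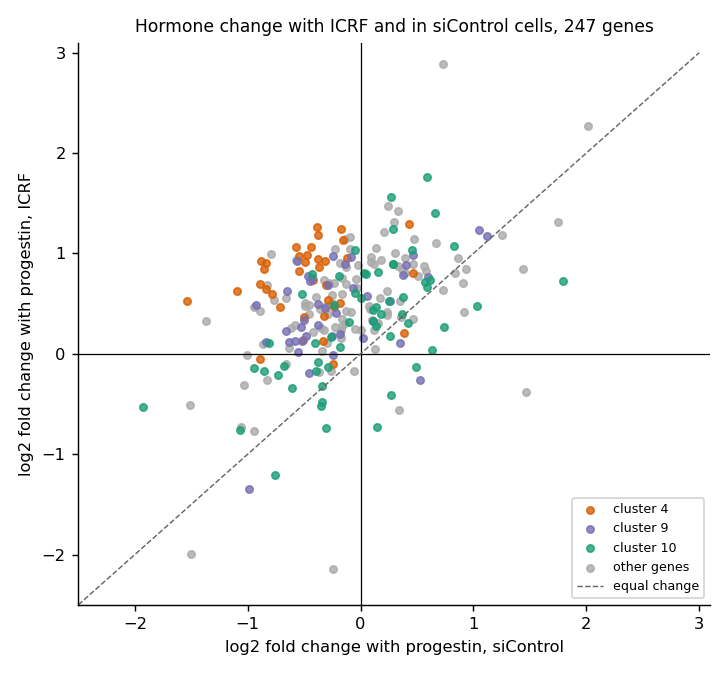
Log2 fold change with progestin under ICRF (vertical axis) against that in siControl cells (horizontal axis) for the 247 genes tested in both fits; colours mark clusters 4, 9 and 10 and the dashed line marks equal change. Most points lie above the dashed line, and cluster 4 lies mainly in the upper left, higher under ICRF and lower with siControl.

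The CEBPA siRNA was accompanied by higher ZNF levels without hormone. Of 247 members tested, 105 were higher and 24 lower in untreated siCEBPA cells than in untreated siControl cells, where 22.6% of all 18351 genes tested were called higher and 24% lower. The median log2 change was 0.19 over members and 0.01 over all genes. The count of lower members depends on scaling and on single libraries. With library totals alone 128 were higher and 12 lower, and 11 were lower without untreated siCEBPA replicate 1 or untreated siControl replicate 2. With progestin, siCEBPA against siControl gave 92 higher and 23 lower of 247, with 22.5% of all genes higher and 22.1% lower and medians of 0.16 and 0.02. Here 13 were lower with library totals alone, 14 without progestin siCEBPA replicate 1 or progestin siControl replicate 2, and 15 without progestin siControl replicate 1. ZNF genes on other chromosomes gave 102 higher and 49 lower of 248 without hormone, whereas the other chromosome 19 genes gave 121 higher and 347 lower of 967. The 2 siRNA comparisons share no library. Across the 247 members their changes gave r = 0.811 and rho = 0.818, against r = 0.639 over all 18351 genes, and 82 members were higher in both, 13 lower in both and 0 called in opposite directions. Over all 18351 genes 2863 (15.6%) were higher in both, 3065 (16.7%) lower in both and 173 (0.943%) called in opposite directions, so opposite calls were rare among all genes too.

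Clusters 4 and 9 had the most genes called higher without hormone. In cluster 4, 24 of 37 genes were higher and none lower without hormone (median log2 0.54), and 24 were higher and 1 lower with progestin (median 0.63). In cluster 9, 25 of 41 were higher and 3 lower without hormone (median 0.41), and 20 were higher and 3 lower with progestin (median 0.24). Cluster 6 had 8 higher and 5 lower of 27 without hormone, and of the 7 genes outside the clusters 5 were lower and none higher. Cluster 4 summed to 336 and 346 CPM in untreated siCEBPA cells against 231 and 226 CPM in untreated siControl cells, and cluster 9 to 670.2 and 696 CPM against 491 and 476 CPM.

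**Figure D4:**
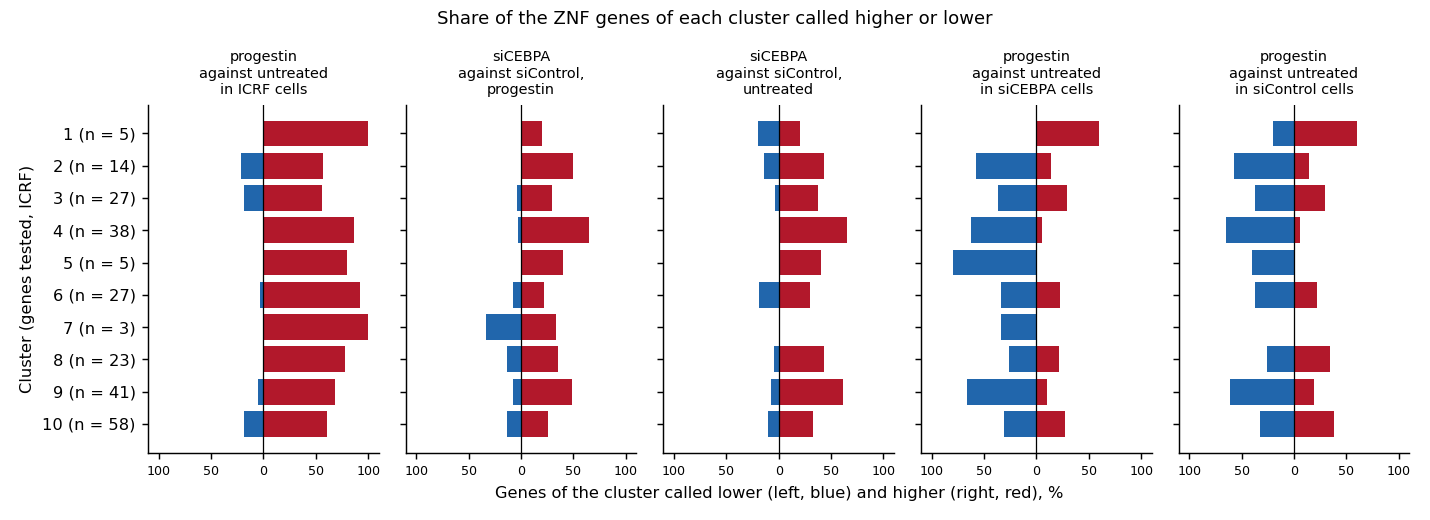
Share of the tested genes of each cluster called higher (right, red) and lower (left, blue), in percent, for 5 comparisons; rows are clusters 1 to 10 with the number of genes tested under ICRF. Cluster 4 extends to the right in the ICRF and both siCEBPA panels and to the left in the progestin panels of siCEBPA and siControl cells.

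The largest rise was that of ZNF702P, a pseudogene in cluster 9 that overlaps another gene on its strand. It had 18.1 and 18.6 CPM in untreated siCEBPA cells, against 3.46 and 3.43 CPM in untreated siControl cells (5.37-fold, log2 2.43 ± 0.09, adjusted p = 2.09e-11). With progestin it had 15.8 and 16.5 CPM in siCEBPA cells, against 5.41 and 4.58 CPM in siControl cells (log2 1.71 ± 0.09). ZNF681 of cluster 4 had 11.4 and 11 CPM in untreated siCEBPA cells, against 3.39 and 3.26 CPM in untreated siControl cells (log2 1.77 ± 0.11). With progestin it had 8.32 and 7.99 CPM in siCEBPA cells, against 2.03 and 2.72 CPM in siControl cells (1.80 ± 0.13). For both genes the libraries of the siRNAs lay far apart with and without hormone.

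ZNF616 (log2 1.35 ± 0.09), ZNF765 (1.33 ± 0.09) and ZNF83 (1.22 ± 0.07) in cluster 9 and ZNF682 in cluster 4 (1.18 ± 0.09) were the next rises without hormone among members of at least 1 CPM without overlap between libraries. ZNF765 had 18.3 and 20.2 CPM in untreated siCEBPA cells, against 8.29 and 7.22 CPM in untreated siControl cells, and 23.8 and 21.6 CPM with progestin in siCEBPA cells, against 7.84 and 8.36 CPM in siControl cells (1.5 ± 0.09 with progestin). With progestin and under the same limits, ZNF737 (1.43 ± 0.12), ZNF761 (1.39 ± 0.05) and ZNF66 (1.30 ± 0.13) joined ZNF681, ZNF702P and ZNF765 at the top. ZNF66 had 6.68 and 5.88 CPM in progestin siCEBPA cells, against 2.87 and 2.28 CPM in progestin siControl cells. ZNF91 was higher in siCEBPA cells in both states (0.43 ± 0.07 without hormone and 0.46 ± 0.08 with progestin).

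Falls with the siRNA were smaller. ZNF358 in cluster 2 had 1.13 and 0.775 CPM in untreated siCEBPA cells, against 2.51 and 2.67 CPM in untreated siControl cells (log2 -1.43 ± 0.23). ZNF296, whose mouse counterpart is known as a partner of Klf4, had 1.16 and 1.36 CPM in untreated siCEBPA cells, against 1.98 and 2.79 CPM in untreated siControl cells (-0.95 ± 0.20). ZNF473, which encodes a protein of histone pre-mRNA processing and lies outside the clusters, had 18.2 and 15.9 CPM in untreated siCEBPA cells, against 24.0 and 24.0 CPM in untreated siControl cells (-0.48 ± 0.07). ZNF382 (-0.51 ± 0.14, not called without untreated siControl replicate 1, adjusted p = 0.0570), ZNF383 (-0.50 ± 0.09) and ZNF613 (-0.46 ± 0.08) followed. With progestin, the largest falls among members of at least 1 CPM without overlap between libraries were ZNF878 (-0.81 ± 0.25), ZNF222 (-0.59 ± 0.18), ZNF577 (-0.56 ± 0.14), ZNF580 (-0.50 ± 0.12), ZNF296 (-0.49 ± 0.18) and ZNF628 (-0.47 ± 0.17). Of these, 4 lost their call without single libraries. ZNF541, outside the clusters and under 1 CPM in each group, fell further (-1.56 ± 0.38). ZNF878 was not called without progestin siCEBPA replicate 1 (log2 -0.81, adjusted p = 0.0536) or progestin siControl replicate 2 (-0.53, adjusted p = 0.189), and ZNF628 was not called without the same libraries (-0.35 and -0.27, adjusted p = 0.183 and 0.311). ZNF222 was not called without progestin siCEBPA replicate 2 or progestin siControl replicate 2 (adjusted p = 0.0863 and 0.149). ZNF296 was at -0.27 without progestin siCEBPA replicate 1 (adjusted p = 0.287), was at -0.73 without progestin siCEBPA replicate 2 and lost its call without either progestin siControl library (adjusted p = 0.109 and 0.125). ZNF296 and ZNF628 were also not called without scaling factors (adjusted p = 0.0793 and 0.0696).

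With siControl, progestin was followed by more falls than rises. Of 247 members, 63 rose and 107 fell, where 29.2% of all genes tested were called higher and 29.3% lower, and the medians were -0.18 over members and -0.03 over all genes. In siCEBPA cells 49 rose and 108 fell, where 29.9% of all genes were called higher and 28.4% lower, with medians of -0.21 and -0.03. Falls outnumbered rises in related sets too. With siControl, ZNF genes on other chromosomes gave 74 higher and 85 lower of 248, with a median of -0.004. The other chromosome 19 genes gave 223 higher and 337 lower of 967, with a median of -0.12. In siCEBPA cells these sets gave 75 higher and 87 lower of 248, and 238 higher and 286 lower of 967. The split of the members depends on scaling. With library totals alone, 41 members rose and 130 fell in siControl cells, and the share of rises among all calls over all genes became 33.9%, against 50% with TMM factors, as the median of all genes moved to -0.19. These 2 responses share no library, and across the members they gave r = 0.866 and rho = 0.868, against r = 0.863 over all genes. In both, 42 members rose and 92 fell, and 2 (0.81%) were called in opposite directions. Over all 18351 genes 4565 (24.9%) rose in both, 4186 (22.8%) fell in both and 85 (0.463%) were called in opposite directions.

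By share of the genes tested, falls with siControl were most frequent in clusters 4, 9 and 2. With siControl, cluster 4 had 2 higher and 24 lower of 37 (median log2 -0.42), cluster 9 had 8 higher and 25 lower of 41 (-0.28) and cluster 2 had 2 higher and 8 lower of 14 (-0.25). Clusters 10 and 8 were mixed, with 22 higher and 19 lower of 58 and 8 higher and 6 lower of 23. Clusters 3 and 6, each with 27 genes, had 8 higher and 10 lower and 6 higher and 10 lower. Cluster 1 at the end of the short arm went the other way, with 3 higher and 1 lower of 5. Its summed level was 58.2 and 57.7 CPM in progestin siControl cells, against 31.9 and 30.9 CPM in untreated siControl cells. The longest stretch of falling neighbours held 7 genes of cluster 4, from ZNF431 to ZNF43, with log2 changes of -0.89 to -0.33.

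ZNF563 had the largest rise. It had 13.3 and 13.2 CPM in progestin siControl cells, against 3.63 and 2.98 CPM in untreated siControl cells (4.04-fold, log2 2.02 ± 0.10, adjusted p = 7.95e-11). In progestin siCEBPA cells it had 20.7 and 19.4 CPM, against 3.74 and 4.29 CPM in untreated siCEBPA cells (2.32 ± 0.10). ZNF57 of cluster 1 had 22.0 and 21.8 CPM in progestin siControl cells, against 7.07 and 5.97 CPM in untreated siControl cells (1.75 ± 0.10), and its neighbour ZNF555 had 17.0 and 16.8 CPM, against 6.69 and 7.31 CPM (1.25 ± 0.08). Progestin libraries were above untreated ones in each of these comparisons.

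ZNF579 in cluster 10 (log2 1.79 ± 0.15) and ZNF761 (1.12 ± 0.05) and ZNF611 (1.05 ± 0.07) in cluster 9 also rose with siControl. In siCEBPA cells ZNF57 (1.82 ± 0.10), ZNF579 (1.72 ± 0.16), ZNF761 (1.70 ± 0.05), ZNF296 (1.40 ± 0.20) and ZNF324B (1.17 ± 0.11) followed ZNF563.

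Among members of at least 1 CPM without overlap between libraries, ZNF737 had the largest fall with siControl (log2 -1.54 ± 0.12), with the values given above. It fell in siCEBPA cells too, where it had 12.9 and 11.8 CPM with progestin, against 25.5 and 25.1 CPM untreated (-1.04 ± 0.10). The responses of this gene did not pass the test of their difference. ZNF558 of cluster 2 had 7.79 and 7.69 CPM in progestin siControl cells, against 20.9 and 22.6 CPM in untreated siControl cells (-1.51 ± 0.08), and 12.7 and 11.8 CPM in progestin siCEBPA cells, against 36.6 and 42.3 CPM in untreated siCEBPA cells (-1.69 ± 0.08). ZNF837 (-1.07 ± 0.29), ZNF653 (-1.06 ± 0.16), ZNF763 (-1.03 ± 0.17) and ZNF559 (-1.0 ± 0.09) completed the falls with siControl, and ZNF837 lost its call without untreated siControl replicate 2 (log2 -0.78, adjusted p = 0.0806). In siCEBPA cells ZNF552 (-1.15 ± 0.06), ZNF887P (-1.13 ± 0.18), ZNF818P (-1.11 ± 0.20) and ZNF878 (-1.02 ± 0.24) fell.

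**Figure D5:**
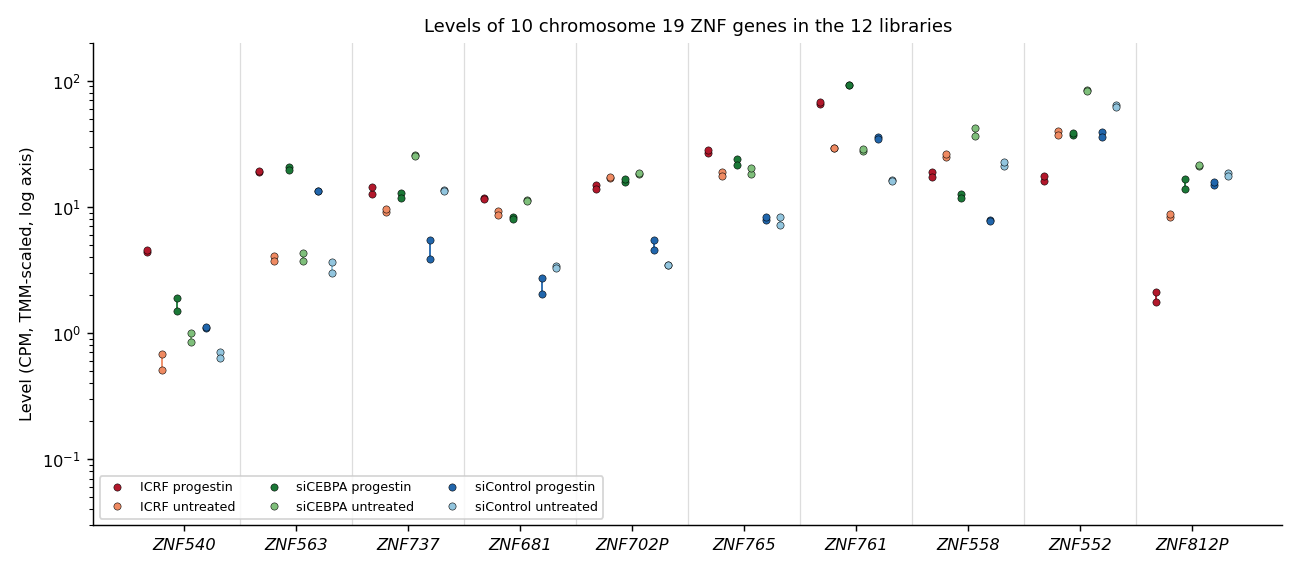
Level in CPM with TMM scaling (vertical log axis) of 10 named genes in the 12 libraries; points are libraries, joined by a line within a group of 2, and colours mark the groups. ZNF702P, ZNF681 and ZNF765 are lowest in the siControl libraries, while ZNF540 is highest and ZNF812P lowest in progestin ICRF libraries.

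The hormone responses of the siRNAs were set against each other within the fit of 8 libraries. The difference, siCEBPA minus siControl, was called higher for 1 and lower for 7 of 247 members, where 4.19% of all genes were called higher and 3.06% lower. ZNF761 was the 1 with a larger response in siCEBPA cells (0.57 ± 0.08 on the log2 scale, adjusted p = 0.000194), with 91.7 and 91.9 CPM in progestin siCEBPA cells against 27.9 and 28.5 CPM in untreated siCEBPA cells, and 35.9 and 34.8 CPM in progestin siControl cells against 16.3 and 15.9 CPM in untreated siControl cells. ZNF222 (-0.92 ± 0.25), ZNF702P (-0.72 ± 0.13), ZNF587 (-0.46 ± 0.09), ZNF83 (-0.42 ± 0.10), ZNF611 (-0.42 ± 0.09), ZNF552 (-0.40 ± 0.08) and ZNF841 (-0.38 ± 0.11) were the 7 lower ones. The difference of ZNF222 was not called by DESeq2 (adjusted p = 0.0747) or without progestin siCEBPA replicate 2, either untreated siCEBPA library, progestin siControl replicate 2 or untreated siControl replicate 2 (adjusted p by edgeR between 0.0514 and 0.173). That of ZNF83 was not called without untreated siCEBPA replicate 2, either progestin siControl library or untreated siControl replicate 1 (adjusted p between 0.0507 and 0.122), nor that of ZNF611 without progestin siControl replicate 1 (adjusted p = 0.0625). ZNF841, with an adjusted p of 0.0410 by edgeR, was not called by DESeq2 (adjusted p = 0.0599), with no filter on low counts (0.0655) or when any of the 8 libraries but progestin siCEBPA replicate 1 was left out (0.0816 to 0.149).

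The start-region run was set beside the changes as a description, since nearly all its carriers lie in clusters 3 and 4. Of its 43 carriers, 34 were higher and 2 lower with progestin under ICRF (median log2 0.70), against 120 higher and 14 lower of the 164 members whose window lacks it (0.47). For siCEBPA against siControl without hormone, 23 carriers were higher and 1 lower (0.35), against 62 higher and 20 lower of the others (0.12). For progestin with siControl, 8 carriers were higher and 25 lower (-0.33), against 49 higher and 62 lower of the others (-0.09). Cluster 4 held 22, 19 and 19 of these carriers that were higher under ICRF, higher with siCEBPA and lower with progestin in siControl cells. The 17 carriers outside cluster 4 gave 12 higher and 2 lower under ICRF, against 118 higher and 14 lower of the 162 other members outside it. For siCEBPA against siControl they gave 4 higher and 1 lower (median log2 0.08), against 60 higher and 20 lower (0.11), and for progestin with siControl 6 higher and 6 lower (-0.13), against 49 higher and 61 lower (-0.09). Among the carriers shown above, ZNF57 of cluster 1 rose and ZNF737 of cluster 4 fell with progestin in siControl cells. The part of the run in these changes was not tested. Only 2 genes of cluster 4 lack it in their windows, so within that cluster the run and the position cannot be told apart.

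The genes of the KRAB silencing pathway, from a list of 25 co-repressors and partners of which 24 were tested, gave more falls than rises with progestin. With progestin under ICRF, 3 rose and 17 fell, against 5 that rose and 12 that fell with siControl, where 31.3% of all genes tested were called higher and 30% lower under ICRF and 29.2% higher and 29.3% lower with siControl. TRIM28, the scaffold that KRAB domains recruit, had 308 and 282 CPM in progestin ICRF cells, against 284 and 288 CPM in untreated ICRF cells, and did not pass the test (log2 0.03 ± 0.04). It passed only for siCEBPA against siControl without hormone (-0.15 ± 0.05). SETDB1, the histone methyltransferase, was at 58.0 and 55.7 CPM in progestin ICRF cells, against 73.8 and 74.8 CPM in untreated ICRF cells (-0.40 ± 0.04), and ATF7IP, its stabilising partner, was at 42.9 and 42.5 CPM, against 85.2 and 84.1 CPM (-1.0 ± 0.04). ATF7IP fell with progestin in siControl cells too, with 24.6 and 27.4 CPM, against 81.6 and 74.0 CPM untreated (-1.59 ± 0.06). UHRF1, a reader of hemimethylated DNA, and CHD4, a remodelling enzyme, fell under ICRF by 1.02 and 1.06 on the log2 scale. Both fell with progestin in siControl cells too (-0.62 ± 0.08 and -0.55 ± 0.04). For siCEBPA against siControl without hormone, 7 of the list were higher, led by the deacetylase gene HDAC1 (0.77 ± 0.05), and 8 were lower, where 22.6% of all genes tested were called higher and 24% lower.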

How the data were processed

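The authors' deposited files hold raw read-pair counts per gene for 12 RNA-seq libraries, made by featureCounts 1.5.1 in paired, reverse-strand mode on GENCODE 24 genes and hg38, per the file headers. STAR and Trimmomatic are named in the submitters' processing notes without versions. Another 18 ChIP samples were not analysed here. Symbols came from a table of gene IDs and matched 56558 of 60554 IDs. How multi-mapping reads were treated is not given in the sources used here.

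Groups came from the sample titles. Each comparison was an edgeR 4.0.16 quasi-likelihood test (R 4.3.3, robust, TMM factors, filterByExpr) with Benjamini-Hochberg adjustment over all genes tested and a threshold of 0.05. The 8 siRNA libraries formed 1 fit (18351 genes), the 4 ICRF libraries another (18556) and all 12 libraries the last (19003), used for the difference of responses between ICRF and siControl. SE is the log2 change divided by the square root of F. The procedure was also run on counts simulated with 200 changed genes in each comparison. With so few changed genes, those runs do not test how the calls depend on scaling. Levels are CPM with TMM scaling. In each comparison the text names the 6 largest rises and falls among called members of at least 1 CPM whose libraries do not overlap (for the 2 differences of responses, with no demand on overlap), the top gene per kb of each cluster and the genes nearest the count minimum. Members and lists were chosen with earlier results of these data known. Alternatives were upper quartile factors, DESeq2 size factors, no scaling factors, DESeq2 1.42.0, other filters, a replicate block, the 12-library fit and leaving out each library.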

Additional observations from a re-analysis of the deposited data

Results flagged for a closer look

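These results stand out because a test of the difference between 2 hormone responses passed. The part of other differences between the experiments was not tested. For ICRF minus siControl, 171 members were higher and 15 lower (69% and 6.05%), against 24.9% and 24% of all genes tested. On the log2 scale, the largest positive differences among members of at least 1 CPM were 2.1585 for ZNF540, 2.063 for ZNF737, 1.8125 for ZNF493, 1.7945 for ZNF333, 1.7489 for ZNF730 and 1.7036 for ZNF98. The largest negative ones, with the same limit, were -1.898 for ZNF812P, -1.0684 for ZNF579, -0.8954 for ZNF69, -0.8723 for ZNF787, -0.789 for ZNF702P and -0.6824 for ZNF587. ZNF541, under 1 CPM, was at -1.851.

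For siCEBPA minus siControl, 1 member was higher and 7 lower (0.405% and 2.83%), against 4.19% and 3.06% of all genes tested. These counts do not exceed the shares over all genes. The log2 differences were 0.5738 for ZNF761, -0.9158 for ZNF222, -0.7195 for ZNF702P, -0.4589 for ZNF587, -0.4182 for ZNF83, -0.4172 for ZNF611, -0.3952 for ZNF552 and -0.38 for ZNF841. ZNF222, ZNF83, ZNF611 and ZNF841 lost their calls when some single libraries were left out, and ZNF222 and ZNF841 also by DESeq2. The differences siCEBPA minus siControl and ICRF minus siControl use the same siControl libraries.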

How the results depend on the processing

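Among 79 values of genes named by the rule and 1252 alternative values of them, 1228 kept direction and call, 24 kept direction and lost the call, and 0 changed direction. A second check held 7 values, of ZNF841, ZNF91, ZNF417 and ZNF587 outside the rule and of ZNF555 with progestin in siControl cells, which is also among the 79. Their 100 alternative values kept direction and 9 lost the call, all of them for ZNF841 in siCEBPA minus siControl. ZNF93, also picked after its values were seen, was not in this check. Without scaling factors the median of all genes shifted to -0.19 for progestin in either siRNA, to 0.10 and 0.11 for siCEBPA against siControl without and with hormone, and to 0.17 for ICRF minus siControl. Then 41 members rose with progestin in siControl cells, and 12 and 13 were lower for siCEBPA against siControl without and with hormone. The share of rises among all calls over all genes became 33.9% and 33.3% for progestin with siControl and siCEBPA, and 65.3% and 64.9% for siCEBPA against siControl. With upper quartile factors it was 38.2% for progestin with siControl. The difference siCEBPA minus siControl gave 2 higher members by DESeq2, in the 12-library fit and with a filter of 20 counts, and 3 with no filter, against 1, and 11 lower ones in the 12-library fit, against 7. Leaving out 1 library at a time gave 11 to 26 lower members for siCEBPA against siControl without hormone, 14 to 23 with progestin, and 1 to 2 higher and 4 to 9 lower members for siCEBPA minus siControl. The lower count was 11 without untreated siCEBPA replicate 1 or untreated siControl replicate 2, and with progestin it was 14 without progestin siCEBPA replicate 1 or progestin siControl replicate 2 and 15 without progestin siControl replicate 1. For siCEBPA minus siControl, 4 lower members were left without untreated siCEBPA replicate 2 or either progestin siControl library, and 2 higher ones were called without either progestin siCEBPA library or progestin siControl replicate 2. Other counts of members stayed within 1.5 times, among them 169 to 180 rises under ICRF without 1 library and 146 to 170 higher differences of ICRF minus siControl.

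Same-numbered replicates deviated together with correlations of -0.006 to 0.385 over 13367 genes, so the numbers were not taken to pair libraries. The correlations among untreated siControl, untreated siCEBPA and progestin siCEBPA were 0.305 to 0.385, and those of these groups with progestin siControl were -0.006 to 0.0343. With a replicate block, siCEBPA minus siControl gave 5 higher and 14 lower members, and it moved no other count by over 1.5 times. A gap of 2 Mb merged the arrays into 6 clusters. With CPM from library totals the summed level was 2580 in untreated ICRF cells, 2860 in progestin siCEBPA cells, 3489 in untreated siCEBPA cells, 2241 in progestin siControl cells and 2646 in untreated siControl cells, with each order between progestin and untreated kept. In progestin ICRF libraries the members held 380970 of 108066269 and 375011 of 103156070 counts. In untreated siCEBPA libraries they held 214132 of 62624949 and 204199 of 57364785 counts. By library totals these groups overlapped, so progestin ICRF stood above all other libraries only with TMM scaling. With 2 libraries a group, genes near 1 CPM have wide errors, and reads shared by close paralogs limit every value here.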

Other observations

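ZNF587 and ZNF417, close relatives in cluster 10 whose proteins are known to bind HERV-K elements, moved in opposite directions with progestin under ICRF. ZNF417, picked after its values were seen, had 7.36 and 7.99 CPM in progestin ICRF cells, against 3.82 and 4.31 CPM in untreated ICRF cells (log2 0.90 ± 0.10, adjusted p = 2.12e-10 by edgeR). ZNF587 had 11.7 and 12.9 CPM in progestin ICRF cells, against 16.1 and 16.3 CPM in untreated ICRF cells (log2 -0.41 ± 0.07). With progestin in siControl cells ZNF417 was at 8.96 and 8.29 CPM, against 6.82 and 7.18 CPM untreated.

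Several genes with large rises in siCEBPA cells had untreated ICRF levels near those of siCEBPA cells. ZNF702P had 16.8 and 17.3 CPM in untreated ICRF cells and 18.1 and 18.6 CPM in untreated siCEBPA cells, against 3.46 and 3.43 CPM in untreated siControl cells. ZNF681 had 9.32 and 8.60 CPM in untreated ICRF cells and 11.4 and 11 CPM in untreated siCEBPA cells, against 3.39 and 3.26 CPM in untreated siControl cells. ZNF616 had 10.5 and 10.3 CPM in untreated ICRF cells and 10.7 and 11.3 CPM in untreated siCEBPA cells, against 4.34 and 4.32 CPM in untreated siControl cells. ZNF83 did not share this, with 24.3 and 26.3 CPM in untreated ICRF cells and 48.4 and 58.0 CPM in untreated siCEBPA cells, against 22.7 and 23.2 CPM in untreated siControl cells. Of the 105 members called higher in siCEBPA cells without hormone, 47 (44.8%) had an untreated ICRF mean nearer to siCEBPA than to siControl on the log2(CPM + 0.5) scale, and so did 57% of all 4153 genes called higher. Of the 24 members called lower, 19 (79.2%) were nearer to siCEBPA, and so were 53.2% of all 4405 genes called lower. The ICRF libraries come from another experiment, and this was not tested.

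Of the 263 matched genes, 15 missed the count minimum, among them ZNF177, ZNF560, ZNF536, ZNF677 and ZNF154, and 4 of them, with ZNF257, lie in cluster 4.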
